A study of Arabidopsis thaliana with 17 samples.

Results

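Embryo proper and suspensor, the 2 parts of the globular embryo of Arabidopsis thaliana, were each captured by laser from seed sections and measured on 2 ATH1 arrays, an Affymetrix microarray with 22810 probe sets. These 4 arrays, chosen by their source labels, are 4 of the 17 in the series, and all probe sets other than 64 controls were compared, 22746 in all. The plants were of the accession Ws-0, and the labels name no transgene and no treatment for any group. The other 13 arrays held 2 samples each of micropylar endosperm, peripheral endosperm, chalazal seed coat, general seed coat and whole seeds, and 3 of chalazal endosperm. The plants were 38 to 46 days old, the siliques 1.1 to 1.4 cm long, and only seeds whose embryo measured 24 to 32 µm across were used. Sections of 5 or 7 µm were cut, and 2 to 4 ng of RNA were amplified for each array. The labels call the 2 arrays of a group biological replicates but do not say which plants or captures they share, so the spread behind each p-value may be partly technical.

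In a globular Arabidopsis embryo, the embryo proper is a dividing sphere whose outer layer becomes the epidermis and from which nearly all of the seedling arises. The suspensor is a short file of cells that holds the embryo proper in the micropylar end of the seed, passes nutrients and hormones to it, and is later removed by programmed cell death. The micropylar endosperm surrounds the suspensor and the lower part of the embryo.

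The embryo proper and the suspensor differed widely. Of 22746 probe sets, 2980 passed the threshold of 0.05 on the adjusted p of limma, which is 13.1% of those tested, with 1287 higher in embryo proper (5.66%) and 1693 higher in suspensor (7.44%). Of these, 699 and 869 name 1 gene. Differences are given as log2(intensity + 31) in embryo proper minus that in suspensor, with the standard error of the fit, so a negative value is higher in suspensor and the change of dim genes is understated. Among called probe sets the median difference was 2.19 for those higher in embryo proper and -2.37 for those higher in suspensor, while the median over all probe sets was 0.02. A difference of at least 4 was found for 69 probe sets in the direction of embryo proper and for 166 in that of suspensor. Regardless of any test, both embryo proper arrays lay above both suspensor arrays for 27.3% of probe sets, and both suspensor arrays lay above both embryo proper arrays for 26.1%. The total was 1897 without embryo proper replicate 1, 1748 without embryo proper replicate 2, 1578 without suspensor replicate 1 and 1615 without suspensor replicate 2. When the arrays were shifted to a common 75th percentile, the median over all probe sets moved to 0.17, so differences there are relative to that shift, and 3008 probe sets passed, 1569 higher in embryo proper and 1439 higher in suspensor. Which direction held more calls thus turned with the scaling, from 43.2% higher in embryo proper to 52.2%. Where a list has 0 calls in a direction, the count at an unadjusted p under 0.05 follows in brackets, and over all probe sets that count was 5427 in both directions together. Each list count below stands beside the shares of 5.66% and 7.44% over all probe sets. Since whole captures were measured, fewer cells of a kind and less RNA per cell cannot be told apart.

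**Figure D1:**
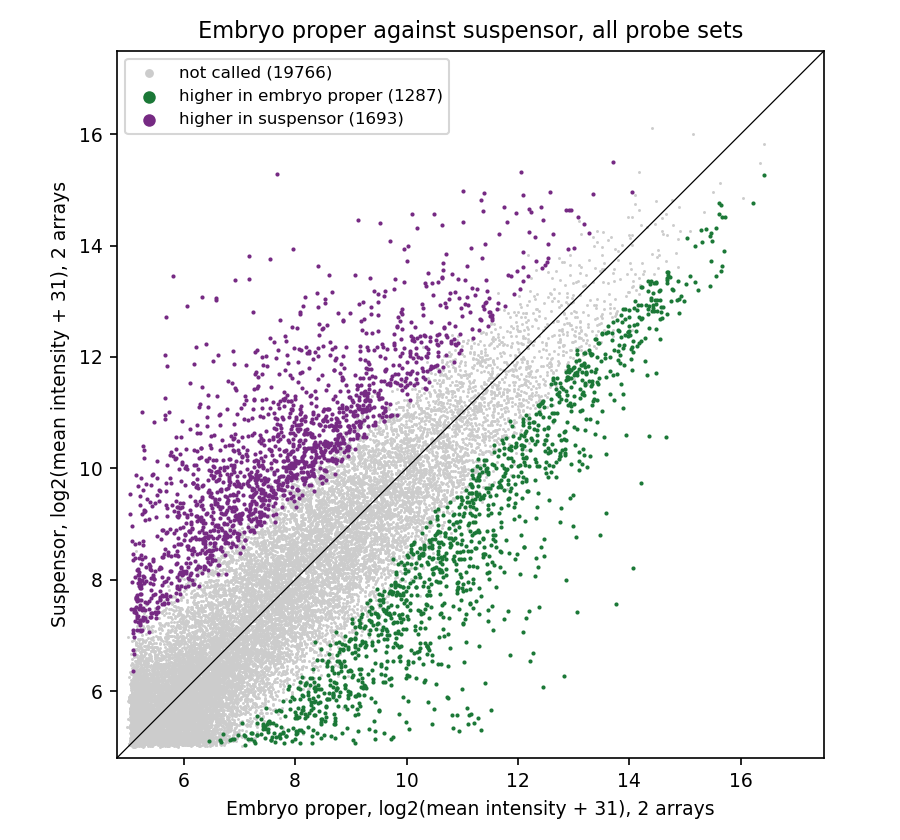
Mean intensity of the 2 embryo proper arrays (x axis) against that of the 2 suspensor arrays (y axis), both as log2(intensity + 31), with 1 point for each of 22746 probe sets and the line of equal values. The 1287 probe sets called higher in embryo proper lie below the line in green and the 1693 called higher in suspensor above it in purple.

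The replicate arrays resembled each other more than the other tissue. Pearson's r over all probe sets was 0.914 between the embryo proper arrays and 0.939 between the suspensor arrays, against 0.794 to 0.809 between the tissues. The 27 control probe sets of Bacillus subtilis genes, whose highest value was used as the background limit of an array, put that limit at 141 and 106 on the embryo proper arrays and at 84.5 and 57.5 on the suspensor arrays. Above it lay 47.1% and 51.7% of probe sets in embryo proper and 58.4% and 61.5% in suspensor. A fold is a lower bound, written "at least", where the dimmer tissue had an array at or below its limit. The ratio of 3′ to 5′ control probe sets, a measure of RNA integrity, was 8.38 and 16.5 for GAPDH in embryo proper and 7.1 and 5.45 in suspensor. For actin it was 12.6 and 17.8 against 25.6 and 18.1, and for ubiquitin 9.46 and 8.24 against 13.3 and 19.2, higher on both suspensor arrays for these 2 controls. The part of these differences in the calls was not tested.

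Transcripts that mark micropylar endosperm were also found on the suspensor arrays. Probe sets higher in 1 endosperm or seed coat compartment than in each of the other 4 were taken as its markers, without use of the embryo arrays. Of 279 markers of micropylar endosperm, 190 were called higher in suspensor and 1 higher in embryo proper, with a median difference of -2.30. Their summed intensity was 1152476 and 885934 on the suspensor arrays and 171047 and 193920 on the embryo proper arrays, where the micropylar endosperm arrays themselves lay between 2487147 and 3272187. The median marker stood in suspensor at 26.9% of its micropylar level and in embryo proper at 4.48%. The part of these transcripts in the suspensor calls was not tested, and the micropylar endosperm level is given beside most suspensor genes described here. Without these probe sets, a step chosen after the data were seen, 2789 calls stayed, 1286 of them higher in embryo proper and 1503 higher in suspensor.

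The peripheral endosperm moved the other way. Of its 264 markers, 89 were called higher in embryo proper and 6 higher in suspensor, with a median difference of 0.95. Their summed intensities were 784181 and 783034 in embryo proper against 323716 and 312393 in suspensor. The peripheral endosperm arrays themselves lay between 1498213 and 1788194. The median marker stood in embryo proper at 26.6% of its peripheral level and in suspensor at 13.4%. The part of these transcripts in the embryo proper calls was not tested. The 656 markers of chalazal endosperm gave 17 and 79 calls, the 301 of chalazal seed coat 31 and 25, and the 306 of general seed coat 31 and 31. The median marker of either seed coat compartment stood at 2.27% to 4.5% of its own level in both embryo tissues.

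The compartment in which a called probe set was brightest differed between the directions. Of the 1287 called higher in embryo proper, 900 (69.9%) had their highest mean of the 7 compartments in embryo proper, and 141 in peripheral endosperm. Of the 1693 called higher in suspensor, 641 (37.9%) were highest in suspensor, 415 (24.5%) in micropylar endosperm and 251 in chalazal endosperm. Over all probe sets tested, 14.6% were highest in embryo proper, 9.12% in suspensor and 14.7% in micropylar endosperm. The calls themselves raise the first shares, since a probe set called higher in 1 tissue cannot be highest in the other.

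**Figure D2:**
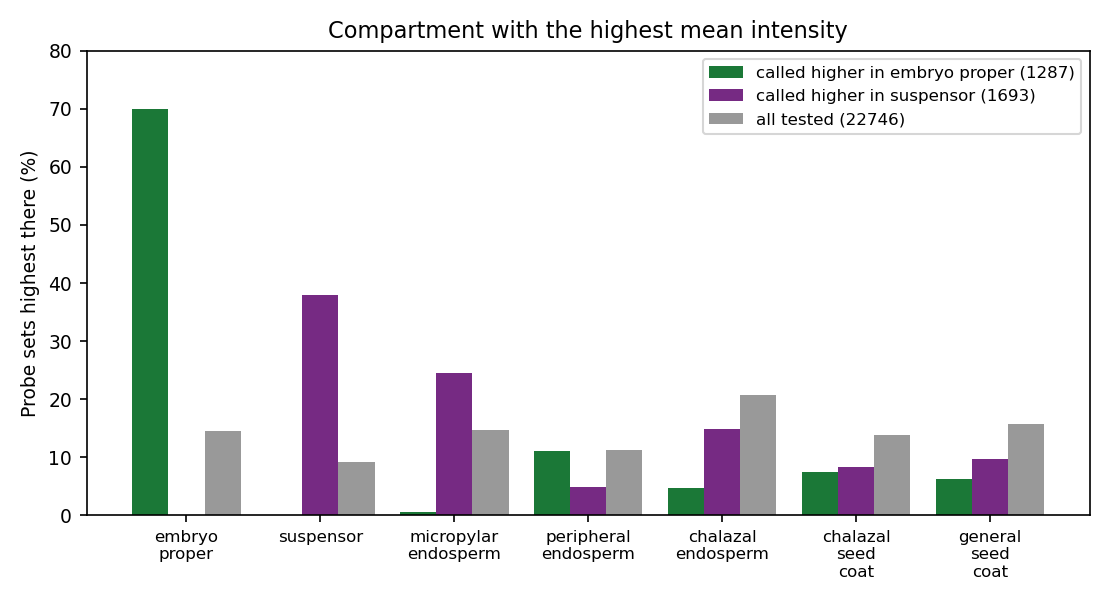
Share of probe sets (y axis, %) whose highest mean intensity among the 7 compartments lay in the compartment on the x axis, for the 1287 called higher in embryo proper (green), the 1693 called higher in suspensor (purple) and all 22746 tested (grey). Embryo proper holds 69.9% of the green set, while the purple set is divided, with 37.9% in suspensor and 24.5% in micropylar endosperm.

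The tissue labels were set beside marker genes. AUR1, the aurora kinase of dividing cells, and CR4 (ACR4), a receptor kinase of the embryonic epidermis, were both brightest in embryo proper. CR4 read 2088 and 3732 on the embryo proper arrays and 494 and 1024 on the suspensor arrays, where micropylar endosperm had a mean of 7.58 ± 6.41 (SD, n = 2), and its difference of 1.92 ± 0.72 did not pass (adjusted p = 0.0812), though it passed under 4 of the 14 alternatives. BBM, PHV and YAB3, also listed as embryo proper markers, differed by 0.33, 1.39 and 1.11. None of them passed (adjusted p = 0.883, 0.185 and 0.285), and YAB3 was not above background on any of the 4 arrays. Markers of the suspensor such as the WOX8 and WOX9 homeodomain genes are not analysed here, so the suspensor label rests on the labels and not on a marker. Of 16 endosperm genes listed, AGL57, AGL96 and AGL62 were called higher in suspensor and 0 higher in embryo proper (0). AGL57 and AGL96, both among the micropylar markers, read 6959 and 5201 and 3519.8 and 3915 in suspensor against 20211 ± 12141 and 13476 ± 22.3 in micropylar endosperm (mean ± SD, n = 2). AGL62, a repressor of endosperm cellularisation, read 201 and 284 in suspensor, 54.8 and 10.1 in embryo proper and 4863 ± 1071 in chalazal endosperm (n = 3). Of 11 seed coat genes, DFR and BAN of the flavonoid pathway were called higher in suspensor and 0 higher in embryo proper (0). DFR read 631 and 744 there and 95.0 and 63.3 in embryo proper, while general seed coat had 31040.3 ± 108. AGL62 lost its call without embryo proper replicate 2, without suspensor replicate 2 and with the 4 arrays alone. BAN lost its call without any 1 of the 4 arrays, and under 9 of the 14 alternatives in all.

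The genes with the largest differences in the direction of embryo proper were dim on the suspensor arrays. By the rule for named genes, the 15 largest among called probe sets with 1 gene, no overlap of arrays and a bright group above the overall median spanned 4.70 to 6.82. In 13 of the 15, at least 1 suspensor array was not above its background limit. Of the 15, 14 were brightest in embryo proper among the 7 compartments.

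AT3G15720, for which the annotation used gives only a locus code, led the list, with 8106 and 6429 in embryo proper and 87.9 and 3.62 in suspensor. Its difference was 6.82 ± 0.81, or at least 101-fold (adjusted p = 1.5e-06), and no endosperm or seed coat mean exceeded 129 ± 154 (chalazal endosperm, SD, n = 3). ROXY1, a CC-type glutaredoxin known from petal development, read 2373 and 1939 against 15.48 and 25.8, a difference of 5.41 ± 0.71, or at least 30.8-fold (adjusted p = 5.9e-06). Both suspensor values of ROXY1 were below the background limit, and its highest mean elsewhere was 203 ± 115 in chalazal endosperm (n = 3). IQD18, a member of the IQ-domain family of calmodulin-binding proteins, read 869 and 1177 against 9.25 and 8.77, a difference of 4.70 ± 0.57, or at least 14.5-fold. TRM28, of the TRM family named for recruiting TON1 to microtubules, read 3594 and 3745 against 55.3 and 84.4, a difference of 5.21 ± 0.74, or at least 43.4-fold.

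Others of the 15 were secreted or wall-directed enzymes by family. The serine carboxypeptidase-like gene scpl25 read 4821 and 4705 against 89.8 and 33.3, a difference of 5.76 ± 0.59, or at least 66.3-fold (adjusted p = 1.8e-07). GH9B13, of the glycosyl hydrolase family that includes endoglucanases, read 852 and 2911 against 21.5 and 11.6, a difference of 5.09 ± 0.72. Its 2 embryo proper arrays differed from each other, but both lay above every suspensor value. SBT1.3, a subtilase, read 3724 and 5319 against 129.7 and 124.3, a difference of 4.83 ± 0.64, or 35.1-fold, and it was the 1 gene of the 15 brighter elsewhere, with 9906 ± 614 in general seed coat (SD, n = 2). The remaining 8 genes carry only locus codes: AT2G41890 (5.92), AT1G80450 (5.76), AT5G40460 (5.64), AT1G53860 (5.38), AT3G15680 (5.27), AT5G50915 (5.26), AT4G16240 (4.99) and AT3G51670 (4.76). The probe set of AT4G16240 is of a kind that can match other genes. None of these 15 lost its call under the alternatives run, 14 for each gene but IQD18, which the filter on dim probe sets left out of 1.

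**Figure D3:**
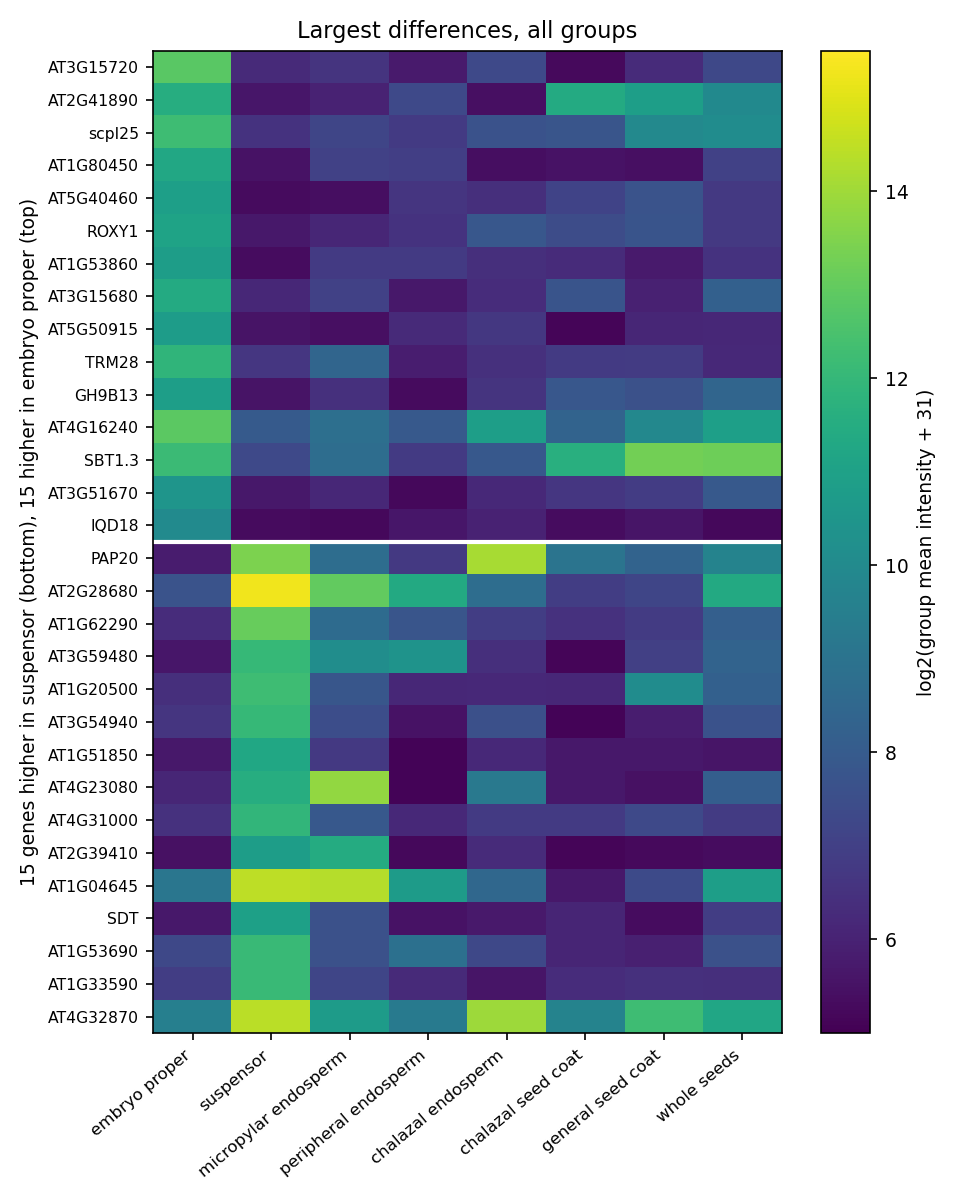
Group means of the 15 genes with the largest named differences in each direction (rows), as log2(mean intensity + 31) on the colour scale, in all 8 groups (columns; 2 arrays each, 3 for chalazal endosperm). The upper 15 are bright in embryo proper and dimmer in suspensor, and the lower 15 the reverse. Among those also bright elsewhere are PAP20 and AT4G32870 in chalazal endosperm and AT2G41890 and SBT1.3 in seed coat. AT4G23080, AT1G04645, AT2G28680 and AT2G39410 are also bright in micropylar endosperm.

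The mitosis genes that passed the test were higher in embryo proper. Of 27 probe sets listed for mitosis and the cell cycle, 7 were called higher in embryo proper and 0 higher in suspensor (2), 25.9% against 5.66% of all probe sets, and the list's median difference was 0.91 against 0.02 over all. Of the 20 not called, differences ran from -1.76 to 1.92. The count was 4 to 6 with 1 array left out, and 6 to 8 with 0 to 1 in the other direction under the other settings. None of the 27 was a micropylar endosperm marker. The list holds 14 TRM genes, of which TRM28, described above, was the 1 called, and the other 13 probe sets hold the other 6 calls.

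HTR12, the centromeric histone H3 also known as CENH3, read 1828 and 2772 on the embryo proper arrays and 7.65 and 291 on the suspensor arrays, a difference of 4.36 ± 0.71, or at least 14.4-fold (adjusted p = 9.4e-05). The 2 suspensor arrays were far apart, 1 of them below its limit, but both lay below embryo proper. The aurora kinases AUR2 and AUR1, which act on mitotic chromosomes and the spindle, were higher by 4.01 ± 0.68 and 3.08 ± 0.61. AUR2 read 2343 and 2644 against 74.5 and 199, and AUR1 1419.7 and 2672 against 153 and 267. Peripheral endosperm, which also divides at this stage, had 1373 ± 489 for AUR1 (SD, n = 2). BUBR1, of the spindle checkpoint, read 1249 and 1819.5 against 142 and 134, a difference of 3.19 ± 0.75 (adjusted p = 0.00419). The call of BUBR1 was lost without embryo proper replicate 2. Completing the 7 are 2 genes named after their values were seen. KINESIN-12B, a motor of the phragmoplast that builds the new wall, read 1694 and 1329 against 288 and 457, a difference of 1.96 ± 0.64 (adjusted p = 0.0405). ATMAP65-6, of the MAP65 family of microtubule-associated proteins, was dim, with 52.8 and 329 against 2.04 and 3.34. KINESIN-12B lost its call without any 1 of the 4 arrays, and ATMAP65-6 without embryo proper replicate 2 or either suspensor array.

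Histones and chromosome proteins followed. Of 7 histone probe sets, 4 were called higher in embryo proper and 0 higher in suspensor (0), with a median difference of 1.51, and the count was 2 to 4 with 1 array left out. HTR12 is 1 of these 4. HTB2, a histone H2B, read 8827 and 8693 against 1138 and 805, a difference of 3.15 ± 0.42, or 9.16-fold (adjusted p = 7.6e-06). HTB4 was the brightest of these signals, with 20726 and 20603 against 5889 and 8874 and a difference of 1.51 ± 0.37. HTB1 read 2922 and 3469 against 725 and 930.0, a difference of 1.92 ± 0.45. The H2B gene HTB11, with 426 and 332 against 316 and 156, did not pass (0.68 ± 0.60, adjusted p = 0.568). HTB1 lost its call without embryo proper replicate 2 and without suspensor replicate 1, and HTB4 without suspensor replicate 1. Signals of closely related H2B genes may share probes, so members of this family are uncertain one by one.

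The next 4 genes were named after their values were seen. TOPII, the DNA topoisomerase II that untangles chromosomes, read 12552 and 11344 against 1664 and 1296, a difference of 3.00 ± 0.52, or 8.13-fold (adjusted p = 0.00018). 3xHMG-box2, a protein of mitotic chromosomes, read 21818 and 20259.7 against 1112 and 1887, a difference of 3.83 ± 0.44, or 14.5-fold (adjusted p = 9.3e-07). Its relative 3xHMG-box1 read 1557 and 2281 against 170.0 and 265, a difference of 2.97 ± 0.64. For each of the 3, peripheral endosperm was the next brightest compartment, with 4553 ± 856 for TOPII, 10314 ± 91.7 for 3xHMG-box2 and 780.1 ± 42.1 for 3xHMG-box1 (mean ± SD, n = 2). ASF1B, a histone chaperone, read 1866 and 1895 against 369 and 372, a difference of 2.25 ± 0.64 that lost its call without any 1 of the 4 arrays. Of 4 DNA replication genes listed, POLD3, a subunit of DNA polymerase delta, was called (1.81 ± 0.61, adjusted p = 0.0489), and the other 3 lay between 0.57 and 1.08. POLD3 also lost its call without any 1 array.

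**Figure D4:**
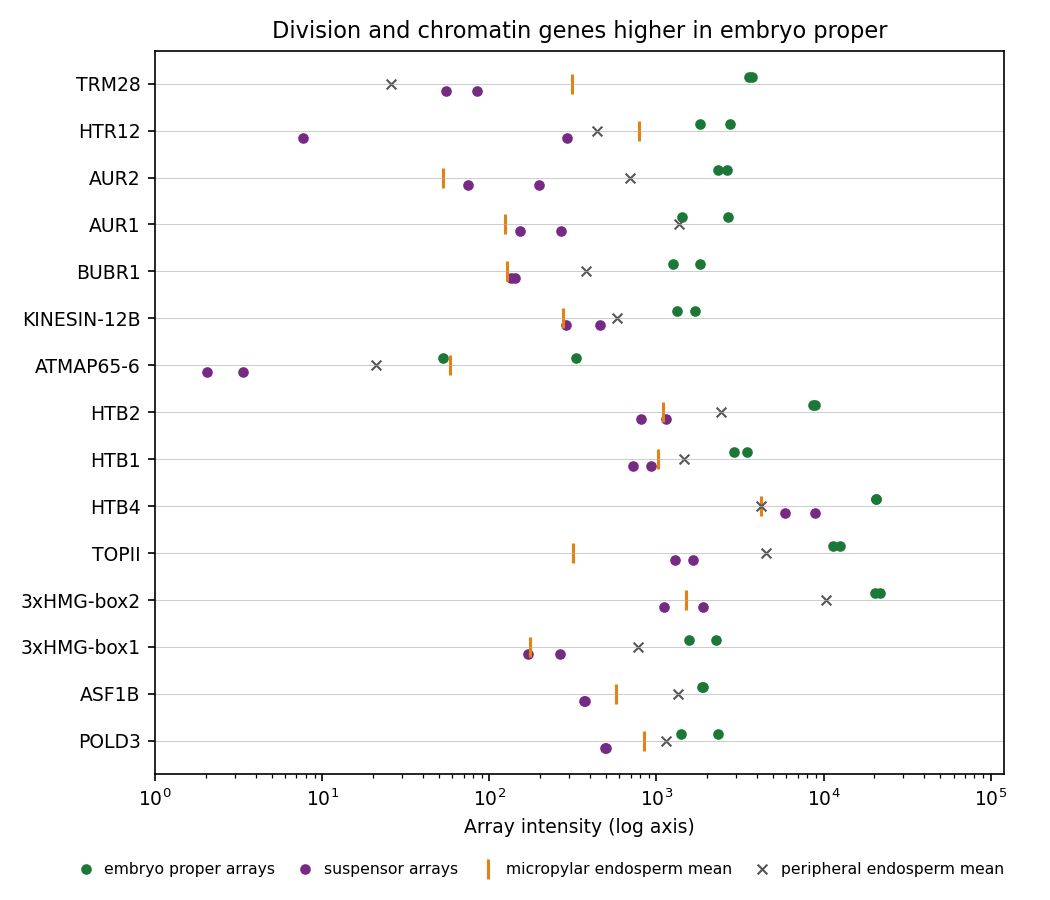
Intensity on a log axis of 15 genes of division and chromatin, 1 per row, with 1 point for each embryo proper array (green) and suspensor array (purple), and the mean of micropylar endosperm (orange bar) and peripheral endosperm (cross), each of 2 arrays. In every row both green points lie to the right of both purple points.

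Some RNA polymerase subunits and ubiquitin-specific proteases were called higher in embryo proper, in lists chosen after the data were seen. Of 12 probe sets for subunits of the nuclear RNA polymerases, 3 were called higher in embryo proper and 0 higher in suspensor (0). NRPA2, the second largest subunit of RNA polymerase I, which transcribes ribosomal RNA genes, read 4135 and 3006 against 409.8 and 824, a difference of 2.53 ± 0.57 (adjusted p = 0.00271). NRPB9B read 2591 and 2063 against 236 and 307 (2.96 ± 0.65) and NRPB12 read 5889 and 4005 against 1959.8 and 1311 (1.58 ± 0.40). Of 12 ubiquitin-specific proteases, which remove ubiquitin from proteins, UBP21 (2.98 ± 0.45), UBP23 (2.48 ± 0.36) and UBP27 (2.41 ± 0.73) were called higher in embryo proper and 0 higher in suspensor (2). The other 9 probe sets of either list did not pass. UBP23 was bright in both tissues, with 15918 and 11176 against 2213 and 2539. Of 13 ubiquitin-conjugating enzymes, a list also chosen after the data were seen, UBC20 was called higher in embryo proper (2.50 ± 0.49) and UBC30 higher in suspensor (-1.93 ± 0.37). Among small lists of the design, PGY1, a ribosomal protein L10a, read 21290.2 and 21595 against 10803 and 6211 (1.38 ± 0.31), and Cpn60beta2, a plastid chaperonin, read 9603 and 9171 against 2931 and 2902 (1.68 ± 0.46). Cpn60beta2 was higher still in peripheral endosperm, at 11564 ± 1466 (SD, n = 2). Calls were lost without 1 array for NRPA2 (suspensor replicate 1), PGY1 (suspensor replicate 2), NRPB12 (embryo proper replicate 1 or suspensor replicate 2), UBP27 (either embryo proper array or suspensor replicate 1) and Cpn60beta2 (any of the 4).

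Secreted enzymes and wall genes were called in both directions. Of 29 serine carboxypeptidase-like probe sets, 4 were called higher in embryo proper (13.8% against 5.66% of all probe sets) and 2 higher in suspensor (6.9% against 7.44%, a share near the background). Beside scpl25, SCPL45 read 4793 and 6458 in embryo proper and 207 and 416 in suspensor, a difference of 4.10 ± 0.64 (adjusted p = 6.1e-05), and no other compartment had a mean above 366 ± 227 (micropylar endosperm, SD, n = 2). In the other direction, SCPL49 read 433 and 766 against 2175 and 2563 (-1.98 ± 0.42), with 2228 ± 521 in micropylar endosperm. ARA12, a subtilase known for its part in releasing seed coat mucilage, read 757 and 782 against 14.7 and 109 (3.32 ± 0.62), below its general seed coat mean of 5793 ± 1169. SKU5, a membrane-anchored protein of directional root growth named after its values were seen, read 811 and 648 against 74.3 and 7.41, a difference of 3.57 ± 0.64, or at least 10.4-fold.

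The TBL family, several of whose members add acetyl groups to wall polysaccharides, went both ways. Of its 24 probe sets, a list chosen after the data were seen, 3 were called higher in embryo proper (12.5% against 5.66% of all probe sets). In suspensor 4 were called higher (16.7% against 7.44%), and 2 of 22 without the micropylar markers. TBL39 read 1005 and 1572 in embryo proper and 109 and 52.6 in suspensor, a difference of 3.58 ± 0.71, while TBL37 (2.84 ± 0.69) and TBL36 (2.56 ± 0.65) were dimmer. TBL41 read 331 and 392 against 14068 and 8591, a difference of -4.82 ± 0.54, or 30.5-fold (adjusted p = 6.4e-07), with 37859.8 ± 16512 in micropylar and 43783 ± 4439 in chalazal endosperm (n = 2 and 3). TBL42 (-4.16 ± 0.61) and TBL15 (-3.79 ± 0.67) are micropylar markers, at 16681 ± 5713 and 26851 ± 1129.5 there. TBL45, named after its values were seen, was the suspensor-high member dim in micropylar endosperm, with 2363 and 2003 in suspensor, 596 and 475 in embryo proper and 95.3 ± 77.2 in micropylar endosperm. Its difference was -1.97 ± 0.66, and its call was lost without any 1 of the 4 arrays and under 9 of the 14 alternatives in all. TBL37 lost its call without embryo proper replicate 1 or suspensor replicate 2, and TBL36 without either second replicate.

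Expansins, which loosen cell walls, were higher in suspensor where they were called. Of 53 probe sets for expansins, xyloglucan enzymes and TBL proteins together, 4 were called higher in embryo proper (7.55% against 5.66% of all probe sets). In suspensor 8 were called higher (15.1% against 7.44%). Without the micropylar markers, 4 of 49 were called higher in embryo proper and 4 higher in suspensor. Of the 10 alpha-expansins, a subset chosen after the data were seen, 3 were called higher in suspensor and 0 higher in embryo proper (2), and the count was 2 without any 1 array. EXPA9 read 2087 and 2305 in suspensor and 141 and 349 in embryo proper, a difference of -3.12 ± 0.68, or at least 9.88-fold (adjusted p = 0.00208). Its mean was 62.0 ± 41.7 in micropylar endosperm, 57.1 ± 3.36 in chalazal seed coat and 70.0 ± 60.5 in general seed coat (SD, n = 2). Both suspensor arrays lay above these means, while those of peripheral and chalazal endosperm are not given here. EXPA21, named after its values were seen, read 29464 and 23377 against 3329 and 3541 (-2.92 ± 0.44) and is a micropylar marker with 72446 ± 15571 there. EXPA4, also named afterwards, read 812 and 788 against 104 and 58.9 (-2.91 ± 0.73), with 70.0 ± 0.0151 in micropylar endosperm and 768 ± 277 in chalazal seed coat. EXPA9 lost its call without embryo proper replicate 1, and EXPA4 without embryo proper replicate 2 or either suspensor array. Of 6 pectin enzymes, 2 were called higher in suspensor and 0 higher in embryo proper (0). These were ATPMEPCRB (-2.17 ± 0.71), a pectin methylesterase, and the micropylar marker AT4G02300 (-3.68 ± 0.66). The call of ATPMEPCRB was lost without any 1 array, and under 9 of the 13 alternatives that tested it in all.

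Few auxin genes were called. SHI, a zinc-binding factor of a family that activates auxin synthesis genes, read 759 and 728 against 9.82 and 3.71, a difference of 4.36 ± 0.64, or at least 10.7-fold (adjusted p = 2.6e-05). Neither suspensor array was above background, and chalazal seed coat had the highest mean, 1986 ± 282 (SD, n = 2). IAA18, an auxin response repressor that acts in apical patterning of the embryo, read 513 and 624 against 54.3 and 5.46, a difference of 3.42 ± 0.61 (adjusted p = 0.00024). Of 19 auxin probe sets, IAA18 was the 1 called higher in embryo proper, and YUC11, a flavin monooxygenase of auxin synthesis, the 1 called higher in suspensor. Each is 5.26% of the list, which is no more than the share over all probe sets, and SHI is not in that list. YUC11 read 289 and 274 in suspensor and 52.6 and 1.64 in embryo proper (-2.58 ± 0.68), with 715 ± 392 in micropylar endosperm, of which it is a marker. The call of YUC11 was lost without embryo proper replicate 2 or either suspensor array.

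Other hormone and signalling genes were scattered. GID1B, a gibberellin receptor, was the 1 called of 6 gibberellin probe sets, with 346 and 401 against 11.5 and 93.5 (2.47 ± 0.64). BIM1, a partner of a brassinosteroid response factor, read 221 and 296 against 13.6 and 20.0 (2.59 ± 0.62), and MYC3, a jasmonate response factor, read 1026 and 491 against 83.5 and 133 (2.44 ± 0.63). Of 11 receptor-like kinases, THE1, a sensor of wall integrity, read 1094 and 1392 against 162 and 275 (2.38 ± 0.51, adjusted p = 0.00168), and MOL1, a repressor of cambium activity, read 474 and 341 against 9.07 and 34.6 (3.08 ± 0.69). Both were brighter in general seed coat, at 3735 ± 495 and 619 ± 142 (SD, n = 2). NUB, a zinc finger factor related to JAG, read 419.7 and 229 against 4.88 and 19.6 (3.00 ± 0.73), and OPS, a membrane protein of phloem differentiation, read 1153 and 661 against 67.8 and 92.9 (3.03 ± 0.70), both named after their values were seen. Of 15 IQ-domain probe sets, a list chosen after the data were seen, IQD18, IQD16 (4.18 ± 0.61) and iqd15 (2.55 ± 0.66) were called higher in embryo proper and 0 higher in suspensor (3). Calls were lost without 1 array for GID1B (embryo proper replicate 2 or suspensor replicate 1), BIM1 (embryo proper replicate 2), MYC3 and NUB (embryo proper replicate 1 or suspensor replicate 1), MOL1 (suspensor replicate 1), OPS (embryo proper replicate 1) and iqd15 (embryo proper replicate 2 or either suspensor array).

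Of the embryo patterning regulators measured here, 1 passed the test. Of 13 probe sets, 0 were called higher in embryo proper (3) and 1, the MADS-box gene AGL18, higher in suspensor, although the list's median difference was 0.80. AGL18 read 1576 and 2041 against 242 and 274 (-2.66 ± 0.50), below its micropylar endosperm mean of 7501 ± 1181 (SD, n = 2). BBM, an AP2-type factor that can induce embryos from vegetative tissue, read 671 and 718 in embryo proper and 437 and 679 in suspensor, and the ranges overlapped (0.33 ± 0.81, adjusted p = 0.883). Against the mean of the 5 other compartments, BBM differed by 3.13 ± 0.62 (adjusted p = 0.00039) in embryo proper and by 2.80 ± 0.62 (adjusted p = 0.00199) in suspensor. In that comparison 12.0% of all probe sets were called higher and 11.6% lower in embryo proper, and 8.38% higher and 5.68% lower in suspensor. GSO1, a receptor kinase of the embryo surface, read 869 and 1375 against 799.6 and 943, also overlapping, and differed from the other compartments by 3.43 ± 0.57 (adjusted p = 4.7e-05) and 3.10 ± 0.57 (adjusted p = 0.00025). LHW, a bHLH factor of vascular divisions, read 1425 and 1733 against 666 and 735 (1.13 ± 0.56, adjusted p = 0.215), without overlap.

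PHV, a homeodomain factor of the upper leaf side, read 507 and 389.6 against 116 and 193 and did not pass either (1.39 ± 0.65, adjusted p = 0.185), though it passed under 1 of the 13 alternatives that tested it. JKD, a zinc finger factor known from root patterning, read 208 and 355 against 354 and 278, with overlap. The other 6, YAB5, YAB3, JAG, CLV3, LEP and PUCHI, were not above background on any embryo proper or suspensor array, so no difference could be measured for them. A difference that did not pass does not show that the tissues were alike.

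The genes with the largest differences in the direction of suspensor spanned -7.64 to -5.20. In 12 of the 15, at least 1 embryo proper array was not above its background limit, 12 were brightest in suspensor among the 7 compartments, and 3 were micropylar endosperm markers. PAP20, a purple acid phosphatase, had the largest difference, with 10639.6 and 11611 on the suspensor arrays and 26.5 and 23.6 on the embryo proper arrays. The difference was -7.64 ± 0.56, or at least 91.0-fold (adjusted p = 1.4e-09), and PAP20 was brighter still in chalazal endosperm, at 18068 ± 2534 (SD, n = 3), but not in micropylar endosperm, at 397 ± 267 (SD, n = 2). SDT, spermidine disinapoyl acyltransferase, an enzyme of phenolic spermidine conjugates, read 2734 and 1197 in suspensor and 3.82 and 35.5 in embryo proper, a difference of -5.26 ± 0.65, or at least 14.8-fold (adjusted p = 2.8e-06). Its mean in micropylar endosperm was 165 ± 89.3, below both suspensor arrays.

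The other 13 of these genes carry only locus codes. AT2G28680 was the brightest, with 46053 and 33921 against 152 and 195, a difference of -7.61 ± 0.62, or 230.0-fold (adjusted p = 5.8e-09), and 8099 ± 3899 in micropylar endosperm (SD, n = 2). AT1G62290 read 9089 and 8126 against 53.1 and 46.0 (-6.74 ± 0.69), with 380.4 ± 84.0 in micropylar endosperm. AT1G33590 read 4206 and 4507 against 71.7 and 104 (-5.22 ± 0.76), with 118 ± 119 there. Both suspensor arrays lay above the micropylar endosperm mean in these 3. AT3G59480 (-6.36), AT1G20500 (-5.95), AT3G54940 (-5.82), AT1G51850 (-5.60), AT4G31000 (-5.44) and AT1G53690 (-5.24) also had suspensor means above every other compartment. The 3 micropylar markers were AT4G23080 (-5.54), AT2G39410 (-5.38) and AT1G04645 (-5.37). AT1G04645 read 26334 and 18763 in suspensor and 20412 ± 6251 in micropylar endosperm, and AT4G32870 (-5.20) was bright in chalazal endosperm too, at 15889 ± 2168 (n = 3). None of the 15 lost its call under any of the 14 alternatives run.

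The genes of autophagy and the vacuole that passed the test were higher in suspensor. Of 29 probe sets listed, 11 were called higher in suspensor and 0 higher in embryo proper (0), 37.9% against 7.44% of all probe sets, with a median difference of -1.18. The 18 not called ran from -1.75 to 1.27. None of the 29 is a micropylar endosperm marker, and the count was 5 to 8 with 1 array left out and 7 to 14 under the other settings. Of the 9 probe sets for ATG8, the small ubiquitin-like protein that is attached to the autophagosome membrane, a subset chosen after the data were seen, 6 were called higher in suspensor and the other 3 lay between -1.75 and -1.19.

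ATG8B read 865 and 829 on the suspensor arrays and 65.6 and 98.1 on the embryo proper arrays, where both values were below background, a difference of -2.97 ± 0.53, or at least 6.93-fold (adjusted p = 0.00026). Its micropylar endosperm mean was 52.4 ± 17.0 (SD, n = 2) and its highest mean was 2609.7 ± 178 in chalazal seed coat. ATG8F read 4265 and 4561 against 513 and 788, a difference of -2.73 ± 0.32, or 6.93-fold (adjusted p = 1.2e-06). Beside the mean of the 5 other compartments, ATG8F differed by -3.67 ± 0.25 (adjusted p = 1e-10) in embryo proper and by -0.93 ± 0.25 (adjusted p = 0.00866) in suspensor, below that mean in both. ATG8D read 3057 and 2188 against 482 and 664 (-2.13 ± 0.41) and ATG8C 1285 and 1509.8 against 207 and 390.0 (-2.17 ± 0.51). For both, embryo proper was below the mean of the other compartments, with differences of -1.58 ± 0.31 (adjusted p = 0.00039) and -1.84 ± 0.39 (adjusted p = 0.00074), while suspensor did not differ from it beyond the threshold. APG8A (-2.01 ± 0.41) and APG8H (-1.83 ± 0.46), the other 2 called, were named after their values were seen. Micropylar endosperm stood above the suspensor mean for ATG8F (8365 ± 352), APG8A (2909.6 ± 211) and ATG8C (2044 ± 505) and below it for ATG8D (1933 ± 492) and APG8H (1902 ± 118). ATG8C and APG8H lost their calls without embryo proper replicate 1 or suspensor replicate 2.

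The remaining 5 called members act in vacuolar acidification and in the sorting of membrane proteins to the vacuole, and were, like their relatives, named after their values were seen. VHA-A2, a subunit of the vacuolar proton pump, read 625 and 593 in suspensor and 191 and 81.4 in embryo proper (-2.02 ± 0.49). The related VHA-A3 read 171 and 183 against 97.5 and 175 and VHA-A1 301 and 159 against 257 and 220.1, and neither passed (adjusted p = 0.85 and 0.966). VPS22 (-1.55 ± 0.52), SNF7.1 (-1.27 ± 0.39), VPS2.1 (-1.21 ± 0.36) and VPS24.1 (-1.09 ± 0.36) belong to the ESCRT complexes, of whose 14 probe sets these 4 were called and 0 were called higher in embryo proper (0). These 4 were the weakest calls of the group, with adjusted p between 0.0238 and 0.0484. Under a common 75th percentile none of the 4 passed, VPS22, SNF7.1 and VPS24.1 were lost without any 1 array, VPS2.1 without embryo proper replicate 1 or either suspensor array, and VHA-A2 without embryo proper replicate 2 or suspensor replicate 1.

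**Figure D5:**
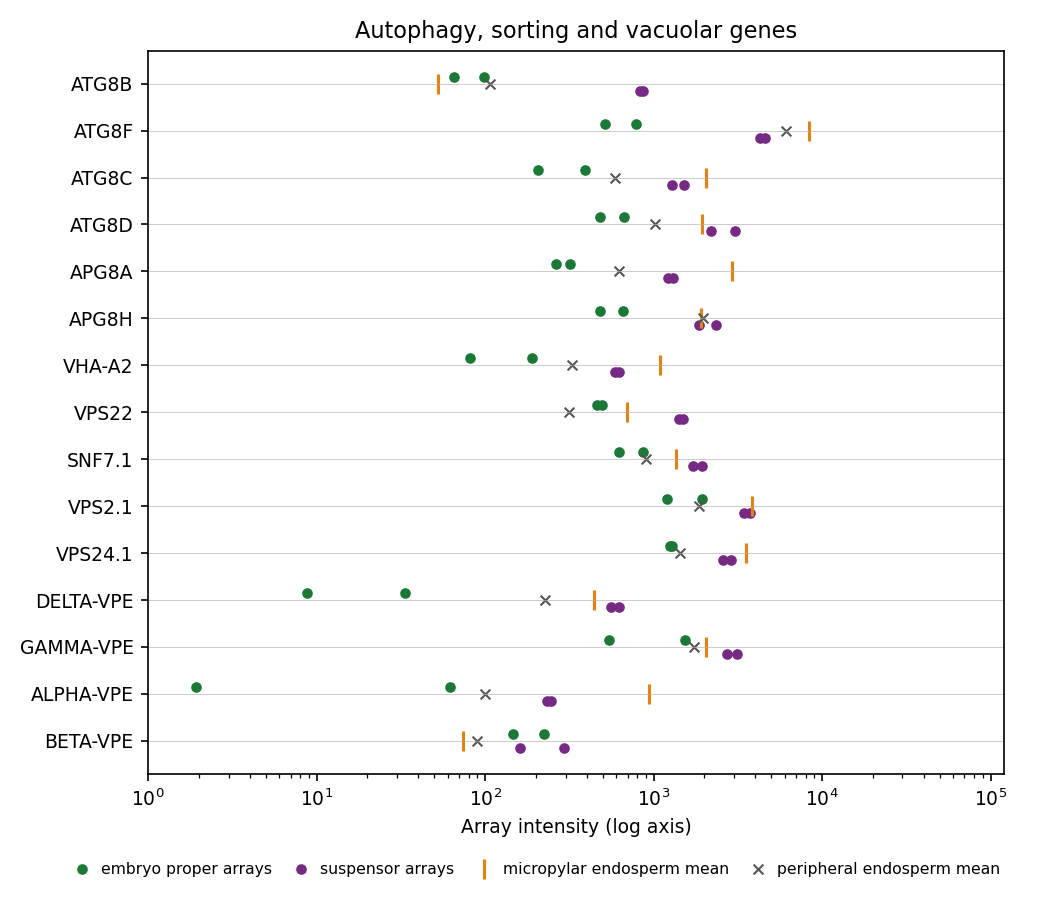
Intensity on a log axis of 15 genes of autophagy, vacuolar sorting and vacuolar processing, 1 per row, with 1 point for each embryo proper array (green) and suspensor array (purple), and the mean of micropylar endosperm (orange bar) and peripheral endosperm (cross), each of 2 arrays. The purple points lie to the right of the green in every row but BETA-VPE, and for ATG8B, VPS22 and SNF7.1, among others, they also lie to the right of the micropylar mean.

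More of the listed proteases were called higher in suspensor than in embryo proper. Of 18 probe sets of aspartic, cysteine and subtilisin-type proteases, 8 were called higher in suspensor (44.4% against 7.44% of all probe sets). The subtilases SBT1.3 and ARA12 were the 2 called higher in embryo proper (11.1% against 5.66%). With 1 array left out, the counts were 2 to 5 in suspensor and 2 in embryo proper. Of the 4 vacuolar processing enzymes, cysteine proteases that mature vacuolar proteins, 3 were called higher in suspensor, a subset chosen after the data were seen. DELTA-VPE, known for cell death in the inner layers of the seed coat, read 625 and 561 in suspensor and 8.70 and 33.2 in embryo proper, a difference of -3.62 ± 0.51, or at least 4.84-fold (adjusted p = 1.4e-05). It read 439.7 ± 98.3 in micropylar endosperm and 16613 ± 914 in general seed coat (SD, n = 2), and the suspensor difference from the mean of the 5 other compartments was 0.01 ± 0.39 (adjusted p = 0.993). GAMMA-VPE, named after its values were seen, read 2738 and 3133 against 546 and 1543 (-1.63 ± 0.42), and BETA-VPE 162 and 294 against 147 and 222, with overlap. ALPHA-VPE (-2.29 ± 0.72) is a micropylar marker, at 934 ± 308 there.

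Other proteases of the list differed in where else they were bright. APA1, an aspartic protease named after its values were seen, read 16286 and 20197 in suspensor and 6426 and 3608 in embryo proper (-1.91 ± 0.44), and beside the other compartments it was higher in suspensor by 2.04 ± 0.34 (adjusted p = 6.6e-05). NANA, an aspartic protease known from chloroplasts, read 1306 and 1354 against 385 and 92.7 (-2.58 ± 0.49), below its means of 4564 ± 389 in micropylar and 6084 ± 2457 in chalazal endosperm (n = 2 and 3). SBT3.12 read 784 and 1773 against 96.3 and 259.1 (-2.66 ± 0.59), with 337 ± 67.1 in micropylar endosperm. GILT, a thiol reductase named after its values were seen, read 1282 and 470.1 in suspensor and 43.5 and 77.9 in embryo proper (-3.17 ± 0.67), but 73579.6 ± 17667 in general seed coat. Calls were lost without 1 array for GAMMA-VPE and SBT3.12 (embryo proper replicate 1 or suspensor replicate 2), ALPHA-VPE (embryo proper replicate 2 or either suspensor array), APA1 (either second replicate) and GILT (suspensor replicate 1).

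Of 3 bZIP regulators of the unfolded protein response measured, BZIP60 and BZIP28 were called higher in suspensor. This response sets in when unfolded proteins build up in the endoplasmic reticulum. BZIP60 and BZIP28 read 947 and 1087 and 917 and 1286 in suspensor against 169 and 243 and 116 and 332 in embryo proper. Their differences were -2.16 ± 0.52 and -2.27 ± 0.52 (adjusted p = 0.0048 and 0.00301). Micropylar endosperm had 919 ± 299 and 1549 ± 568 (SD, n = 2), so the suspensor level of either was not set apart from it. DER2.2, a derlin of the pathway that removes misfolded proteins, read 610.4 and 839.9 against 164 and 118 (-2.13 ± 0.61), with 253 ± 154 in micropylar endosperm, and was named after its values were seen. These 3 were the called members of 9 probe sets in a list chosen after the data were seen, with 0 higher in embryo proper (0) and 0 to 2 called with 1 array left out, while the related BZIP17 read 535 and 578 against 389.7 and 565 and overlapped (adjusted p = 0.874). BZIP60 and BZIP28 lost their calls without embryo proper replicate 1 or suspensor replicate 2, and DER2.2 without any 1 array.

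Enzymes of organic acid and amino acid breakdown were called in suspensor, the lists among them chosen after the data were seen. FDH, formate dehydrogenase, and PPDK, pyruvate orthophosphate dikinase, were named after their values were seen. FDH read 8870.2 and 9175 in suspensor and 284 and 329 in embryo proper, a difference of -4.75 ± 0.54, or 29.5-fold (adjusted p = 9.2e-07). No other compartment had a mean above 1803 ± 476 (general seed coat, SD, n = 2), and micropylar endosperm had 362 ± 97.5. PPDK read 299.9 and 439.7 against 3.35 and 4.03 (-3.51 ± 0.65), with 6.33 ± 6.08 in micropylar endosperm. Of 6 isocitrate dehydrogenase probe sets, 4 were called higher in suspensor and 0 higher in embryo proper (0). The cytosolic cICDH was bright in both, with 17026 and 16203 against 6024 and 5801 (-1.49 ± 0.33), and ICDH read 2476 and 2107 against 331 and 230.0 (-2.91 ± 0.45). IDH-III (-2.79 ± 0.65) and IDH-V (-1.94 ± 0.53) were the other 2, and IDH-V lost its call without embryo proper replicate 2 or either suspensor array.

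Of 6 probe sets for the mitochondrial breakdown of branched-chain amino acids, 3 were called higher in suspensor and 0 higher in embryo proper (0). IVD, isovaleryl-CoA dehydrogenase, read 1152 and 1155 in suspensor and 292 and 110.0 in embryo proper (-2.47 ± 0.57, adjusted p = 0.00353), with 262 ± 123.0 in micropylar endosperm (SD, n = 2). MCCA, a subunit of methylcrotonyl-CoA carboxylase in the same pathway, read 3142 and 3392 against 954 and 1121 (-1.63 ± 0.42), with 3293 ± 1336 in micropylar endosperm. ETFALPHA, the electron acceptor of these dehydrogenases, read 349.8 and 824 against 101 and 146 (-1.90 ± 0.62). IVD lost its call without embryo proper replicate 2, MCCA without embryo proper replicate 1 or either suspensor array, and ETFALPHA without either embryo proper array or suspensor replicate 2. The call of ETFALPHA was lost under 8 of the 14 alternatives in all, among them quantile normalization and a common 75th percentile. MT1C, a metallothionein, and PRXR1, a peroxidase, were 2 further suspensor-high genes, the first named after its values were seen. MT1C read 1814 and 1304 against 3.69 and 84.7 (-4.63 ± 0.70), and PRXR1 776 and 1190.4 against 8.75 and 49.2 (-4.14 ± 0.48), far below its general seed coat mean of 11811 ± 2192.

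The transporters called in suspensor were few, and all were sugar carriers. Of 35 probe sets for transporters of sugars, amino acids and ions, 3 were called higher in suspensor and 0 higher in embryo proper (0), 8.57% against 7.44% of all probe sets, a share near the background. SWEET7, of the SWEET family of sugar channels, read 868 and 1105 in suspensor and 55.1 and 16.6 in embryo proper, a difference of -3.98 ± 0.66, or at least 8.02-fold (adjusted p = 0.00011). Its micropylar endosperm mean was 78.1 ± 72.1 (SD, n = 2), and beside the other compartments it was higher in suspensor by 3.08 ± 0.51 (adjusted p = 6.4e-05). SWEET8 read 5673 and 5065 against 278 and 347 (-3.98 ± 0.43) but is a micropylar marker, at 18546 ± 981 there. Of 16 SWEET probe sets, a list chosen after the data were seen, 2 were called higher in suspensor (12.5% against 7.44% of all probe sets). In embryo proper 0 were called higher (0). Without the micropylar marker, 1 of 15 was called higher in suspensor. TMT1, which loads sugars into the vacuole, read 351 and 716 against 26.04 and 16.1 (-3.37 ± 0.72), with 731 ± 216 in micropylar endosperm, and its call was lost without suspensor replicate 2.

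Several small secreted peptides were bright in suspensor. Of 29 probe sets for defensin-like, thionin and RALF-type peptides, 7 were called higher in suspensor and 1 higher in embryo proper, with 4 to 7 in suspensor with 1 array left out and 4 without the micropylar markers. LCR68, a defensin-like peptide, read 31988 and 32303 in suspensor and 1539.6 and 2560.5 in embryo proper, a difference of -3.9954 ± 0.68, or 16.2-fold (adjusted p = 0.00016). Its micropylar endosperm mean was 656 ± 11.3 (SD, n = 2), and beside the 5 other compartments it was higher in suspensor by 6.95 ± 0.53 (adjusted p = 3.8e-10) and in embryo proper by 2.96 ± 0.53 (adjusted p = 0.00011). LCR59 (-4.16 ± 0.91), RALFL18 (-3.90 ± 0.80) and LCR24 (-2.57 ± 0.47), the last named after its values were seen, are micropylar markers. LCR59 read 14894 and 12256 in suspensor and 56008 ± 24147 in micropylar endosperm, and LCR24 35878 and 28086 and 103624 ± 55949.9. LCR80 (-3.18 ± 0.76) was brighter in micropylar endosperm too, at 2127 ± 1461. PDF2.1, a plant defensin named after its values were seen, read 893 and 365 in suspensor, 73.1 and 15.9 in embryo proper (-3.11 ± 0.72) and 205 ± 202 in micropylar endosperm. LCR59 lost its call without embryo proper replicate 1, and LCR80 and PDF2.1 without embryo proper replicate 2 or suspensor replicate 1.

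The suspensor-high regulators not yet named were few. bHLH115, a factor of the iron deficiency response, read 1883 and 2352 in suspensor and 180.2 and 303 in embryo proper, a difference of -3.01 ± 0.50, or 9.01-fold (adjusted p = 0.00011), with 289 ± 58.5 in micropylar endosperm (SD, n = 2). WRKY6, known from stress and senescence, read 245 and 210.1 against 9.74 and 16.8 (-2.55 ± 0.58), with 129 ± 43.8 in micropylar endosperm. AT2G12900, listed among bZIP genes by its symbol table, is a micropylar marker (-2.53 ± 0.58). Among glycosyltransferases, UGT84B1, known to attach glucose to the auxin indole acetic acid, read 897 and 778 against 127 and 39.5 (-3.04 ± 0.58), and its relative UGT84B2 1717 and 839.6 against 17.7 and 36.1 (-4.43 ± 0.69). Both are micropylar markers, at 4529 ± 397 and 6659 ± 3193 there. The 2 sequences are related, so their signals may share probes.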

How the data were processed

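Each laser-captured sample was amplified (NuGEN WT-Ovation Pico) and hybridised to 1 ATH1 array, per the labels' protocols. The authors deposited 1 table of intensities, linear and scaled per array. Per the submitters' processing notes GCOS, Affymetrix software, was used, and its version is not given in the sources used here. No array was left out.

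A model with 1 mean for each group was fitted to log2(intensity + 31) of all 17 arrays with limma 3.58.1 (R 4.3.3), with 9 residual degrees of freedom shared by all groups, eBayes with an intensity trend and two-sided tests. P-values were adjusted by Benjamini-Hochberg over all 22746 probe sets, with a threshold of 0.05. The same fit set embryo proper, and suspensor, beside the mean of the 5 endosperm and seed coat compartments. These comparisons share arrays with the main one, so their values are only given side by side. The fit was tested on simulated data, with 50 probe sets of above-median signal shifted between the tissues at each of 4 sizes. It recovered 2% of log2 shifts of 1, 34% of 2, 74% of 3 and 84% of 4. Of its 101 calls, 4 were false. Few probe sets were shifted there, so these shares need not hold for the data. The number of arrays limits the precision.

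Folds are ratios of geometric mean intensities, with an array below its background limit set to that limit. The probe annotation gives 1 gene for 13513 of the probe sets tested, 13436 of which matched the RefSeq table of TAIR10.1. It gives several for 503, and the other 8730 stayed in the fit with no name. Named genes were the 15 largest differences in each direction, per list of at least 3 probe sets the 4 largest called per direction and the 2 brightest uncalled, and every patterning regulator, and of these the text gives those that bear on a list it describes. A list is described by its counts and median, with no set test. The genes and the 42 lists were chosen with earlier results of these data known, and 16 further lists after the data were seen. Alternatives covered the offset, the scaling, a filter on dim probe sets, the intensity trend, array weights, the arrays in the fit, the replicate number and each array left out.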

Additional observations from a re-analysis of the deposited data

How the results depend on the processing

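Of 150 called probe sets named in the text, 87 kept their call under every alternative that tested them, 63 lost it under at least 1, 38 of these only when an array was left out, and 0 changed direction. The losses given beside single genes are mainly those with an array left out, and some of these genes also lost their call under other settings. The 2980 calls between embryo proper and suspensor became 3863 with array weights, 3457 with a larger offset, 2537 with an offset of 8 and 2540 without an intensity trend, and lay between 2730 and 3008 under the other scalings, the dim filter, the 4 arrays alone and without whole seeds. With 1 of the 4 arrays left out, where the lone array is assumed to vary like the other groups, 1578 to 1897 were called. Calls beside the mean of the 5 other compartments, 5367 for embryo proper and 3199 for suspensor, became 2993 to 5130 and 1429 to 3176. The replicate numbers are not said to mark a shared plant or day. Deviations from the group means were compared for embryo proper replicate 1 and suspensor replicate 1 only, with r = -0.00045. Arrays of the same number in the other groups were not compared. With the replicate block, 3045 were called, 1327 higher in embryo proper and 1718 higher in suspensor. Among the named genes, a common 75th percentile ended 9 calls, no intensity trend 20, an offset of 8 ended 7 and the 4 arrays alone 9, and the cause was not tested. Of the uncalled genes, 6 changed sign. With 1 array left out, differences ran from -0.61 to 0.14 for BETA-VPE, -0.48 to 0.023 for BZIP17, -0.53 to 0.16 for JKD, -0.78 to 0.26 for LEP, -0.26 to 0.065 for PUCHI, which was 0.056 at a common 75th percentile, and -0.30 to 0.50 for VHA-A1. Promoters and proteins were not compared here. With 2 arrays a group, a difference that did not pass was not shown to be absent, and probe sets below the background limits have only bounds.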

Other observations

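Transcripts of the plastid genome were called in both directions, in a list chosen after the data were seen. Of 69 probe sets, 11 were called higher in embryo proper (15.9% against 5.66% of all probe sets). In suspensor 5 were called higher (7.25% against 7.44%, a share near the background). The list's median difference was 0.29. rpoB and rpoC1, subunits of the plastid RNA polymerase, read 5794 and 6586 and 10376 and 9653 in embryo proper against 2101 and 2343 and 4259 and 4335 in suspensor, differences of 1.46 ± 0.35 and 1.21 ± 0.32. psbA and rbcL, which encode a photosystem II core protein and the large subunit of Rubisco, went the other way, with 5485 and 4657 and 6256 and 5446 in embryo proper against 15372 and 11758 and 14036 and 12713 in suspensor, differences of -1.41 ± 0.33 and -1.19 ± 0.32. Photosynthesis genes were called in either direction. Higher in embryo proper were psbD (1.07 ± 0.30), psbF (1.13 ± 0.35), psbK (1.13 ± 0.33), petA (1.28 ± 0.33) and the ATP synthase gene atpE (1.10 ± 0.30). psbH (-1.45 ± 0.45) was higher in suspensor. All 5 suspensor calls, with psbA, rbcL and psbH among them, were of photosynthesis genes. No plastid gene for a ribosomal protein or an RNA polymerase subunit was called higher there. Both psbA and rbcL were brighter still in peripheral endosperm, at 42274 ± 13263 and 59295 ± 25933 (mean ± SD, n = 2). With 1 array left out the counts were 1 to 7 and 0 to 5, and the calls of rpoB, rpoC1, psbA and rbcL were lost without embryo proper replicate 2 and without suspensor replicate 1. The calls of rpoC1 and rbcL were also lost without suspensor replicate 2, and that of rpoC1 without embryo proper replicate 1. Under the other settings the counts were 1 to 12 and 0 to 6. Without an intensity trend, the named plastid genes other than rpoB did not pass.

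Several lists showed no call. Of 23 cytochromes P450, 7 cytokinin genes, 8 genes of sucrose and starch metabolism and 5 AP2 and ERF factors, 0 were called by limma in either direction, and 1, 1, 1 and 0 of them had an unadjusted p under 0.05. Of 44 MADS-box probe sets, 4 were called higher in suspensor (9.09% against 7.44% of all probe sets), 2 of them micropylar endosperm markers, and of 75 glycosyltransferases and beta-glucosidases 3 were called higher in embryo proper (4% against 5.66%) and 5 higher in suspensor (6.67%). Above the background share, 3 of 17 nuclear photosynthesis genes (17.6%), LHCB4.3 (-2.84 ± 0.56), PSAE-1 (-2.60 ± 0.50) and PSBY (-1.53 ± 0.42), were called higher in suspensor. PSBY lost its call without either embryo proper array or suspensor replicate 1. Of 31 peroxidases, glutathione transferases and glutaredoxins, 3 were called higher in embryo proper (9.68%) and 5 higher in suspensor (16.1%). GSTU27, a glutathione transferase, read 583 and 430.1 in embryo proper and 3.76 and 1.36 in suspensor (3.99 ± 0.83), GSTL3 322 and 98.8 against 1212 and 1899 (-2.85 ± 0.51), and GRXC1, a glutaredoxin, 602 and 1074 against 4833 and 2551 (-2.08 ± 0.49). GSTL3 kept its call under the 14 alternatives run, and GRXC1 lost it without either first replicate.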
